A study of Mus musculus with 18 samples.

Results

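The genes described here are 37 cell cycle and DNA replication genes, found by symbol among 55357 genes measured in mouse back skin. Of these, 16 act at the entry into S phase and in DNA replication (the G1/S genes) and 21 act in mitosis (the mitotic genes). All 37 passed the filter on low values (10 or more normalized counts in 6 or more libraries), and all 37 would have passed it on the libraries without growing hair alone.

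Bulk RNA was sequenced from 18 FVB mice aged 6 months, 1 library per mouse, with 6 mice in each of 3 groups. WT mice carried no transgene, per their label. N-IKKa mice carried exogenous IKKα, a kinase of the NF-κB pathway, in the nucleus of keratinocytes, and C-IKKa mice carried it in the cytoplasm. The labels name neither the promoter that drives the transgene nor the number of founder lines. Chuk, which encodes IKKα, ranged from 851 to 1267 normalized counts in WT (median 989), from 804 to 1050 in N-IKKa (median 1021) and from 853 to 934 in C-IKKa (median 885). The species and sequence of the IKKα transgene are not given in the sources used here, so whether its reads would be counted under Chuk is not known. Libraries held 11.1 to 15.7 M recovered reads. All p-values below measure the spread between these mice.

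A set of 6 libraries was compared with the rest, since their skin held growing hair by its transcripts: C-IKKa 14, WT 1 and 4, and N-IKKa 8, 9 and 11. This division was made from hair shaft genes in these same libraries and is not a label of the study. The other 12 libraries came from C-IKKa 13 and 15 to 18, N-IKKa 7, 10 and 12, and WT 2, 3, 5 and 6. The sum of hair shaft and root sheath markers ranged from 60104 to 221070 normalized counts in the growing-hair libraries and from 67.8 to 4739 in the others, with 14 of 15 measured markers separated completely and Tchh at 0 in every library. All 6 hair matrix markers were separated as well, with sums of 8447 to 19769 against 913 to 2073. All 6 growing-hair mice were read as female from the Y-linked gene Ddx3y, whereas the others comprised 4 females and 8 males. Hair stage and sex therefore overlap. The 12 others are called libraries without growing hair here, which means only that they lie outside the set. C-IKKa 18 had the highest hair shaft mean of the 12, 5.54 on the log2 scale. The rest of the 12 lay between 1.68 and 4.35 and the growing-hair libraries between 10.10 and 12.21. WT 2 and C-IKKa 18, both female, also stood apart from the rest in cell cycle genes, as described below.

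A dividing cell first passes from G1 into S phase. Cyclins D and E with their kinases release the E2F factors, origins of replication are loaded with the MCM helicase, and the enzymes that supply nucleotides are made. Genes of mitosis are transcribed later, in G2, and are governed largely through CHR and CCAAT elements bound by the DREAM complex, B-MYB, FOXM1 and NF-Y. In back skin, the matrix at the base of a growing hair follicle is among the fastest dividing cell populations, next to the basal layer of the epidermis. In bulk tissue, fewer cells of a type and less RNA per cell cannot be told apart.

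The 2 gene groups differ in the elements their promoters hold, so the sequences of 6 members are shown. They were chosen to cover both groups, and do not cover every combination of elements found. Promoters of 30 of the 37 members were matched in a RefSeq table of build GRCm38.p6, an earlier build than that of the expression table, with 250 bases before and 50 after each gene's start. The lines below give the 180 bases directly before the start, 5′ to 3′ on the gene's own strand. Capitals mark 3 kinds of element searched on both strands: E2F elements (TTTGGCGC, TTTCCCGC, TTTCGCGC or TTTGCCGC), CHR elements (TTTGAA) and CCAAT boxes (CCAAT). Elements can overlap, as both E2F matches do in the run of capitals near the left end of the Mcm5 line. Mcm5 lies at chr8:75109329-75109508 (plus strand), Mcm6 at chr1:128359706-128359885 (minus), Cdk1 at chr10:69352913-69353092 (minus), Cdc20 at chr4:118437344-118437523 (minus), Kif11 at chr19:37376202-37376381 (plus) and Top2a at chr11:99024190-99024369 (minus).
Mcm5: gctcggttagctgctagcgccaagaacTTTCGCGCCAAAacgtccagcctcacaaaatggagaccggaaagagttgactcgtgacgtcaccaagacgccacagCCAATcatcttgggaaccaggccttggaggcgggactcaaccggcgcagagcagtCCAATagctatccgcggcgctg
Mcm6: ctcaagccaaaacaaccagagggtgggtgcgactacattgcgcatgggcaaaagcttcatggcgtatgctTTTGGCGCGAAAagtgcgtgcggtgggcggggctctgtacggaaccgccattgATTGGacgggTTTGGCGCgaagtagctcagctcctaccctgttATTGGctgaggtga
Cdk1: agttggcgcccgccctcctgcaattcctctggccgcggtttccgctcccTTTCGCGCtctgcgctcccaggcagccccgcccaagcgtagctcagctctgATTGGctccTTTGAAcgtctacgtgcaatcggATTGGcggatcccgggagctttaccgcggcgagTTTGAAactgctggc
Cdc20: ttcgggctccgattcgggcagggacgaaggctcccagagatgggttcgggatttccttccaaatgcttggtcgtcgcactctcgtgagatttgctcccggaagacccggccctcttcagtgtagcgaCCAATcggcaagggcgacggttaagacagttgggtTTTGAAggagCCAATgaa
Kif11: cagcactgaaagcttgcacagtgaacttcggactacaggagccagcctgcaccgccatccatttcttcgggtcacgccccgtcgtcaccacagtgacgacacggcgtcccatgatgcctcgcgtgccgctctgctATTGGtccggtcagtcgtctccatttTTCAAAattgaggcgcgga
Top2a: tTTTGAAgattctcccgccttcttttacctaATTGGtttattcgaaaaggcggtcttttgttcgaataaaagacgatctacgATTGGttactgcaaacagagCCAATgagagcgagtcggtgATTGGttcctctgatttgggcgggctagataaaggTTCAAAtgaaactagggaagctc

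An E2F element was found in 5 of 13 matched G1/S promoters (Cdc6, Mcm3, Mcm5, Mcm6 and Mcm7) and in 1 of 17 mitotic promoters (Cdk1), against 2.32% of 27025 promoters of the same length. CHR elements were found in 12 of 17 mitotic promoters and in 2 of 13 G1/S promoters (Cdc45 and Mcm2), against 18.1% of all promoters. CCAAT boxes were found in 15 of 17 and 9 of 13, against 37.9%. Cdk1 was the one member with all 3 kinds. Each promoter shown above holds a CCAAT box beside an E2F or CHR element, which was not so in all members. Cdc6 had an E2F element alone. Bub1, Ccnb1, Cenpe, Pcna, Rrm1 and Rrm2 had CCAAT boxes alone, and some promoters, such as those of E2f1 and Birc5, had none of the 3 kinds. These matches describe the letters in the window and say nothing of binding in skin. Ccnd1, Ccne2, Ccna2, Aurkb, Kif20a, Mcm4 and Tpx2 were not matched.

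Both gene groups were higher in the growing-hair libraries, and the mitotic genes by more. Every one of the 37 log2 differences, weighted equally over the 3 genotypes, was positive, where 48.8% of all genes tested were. The median was 0.83 for the G1/S genes (range 0.40 to 1.95) and 1.76 for the mitotic genes (range 1.02 to 2.23), against −0.01 for all 17667 genes tested. In 28 of the 37, 11 G1/S and 17 mitotic, all 6 growing-hair libraries lay above all 12 others, where 8.45% of all genes tested did so and 5.25% lay completely below. Since the libraries were divided by their own transcripts, these values are a description and no test was made of them.

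**Figure D1:**
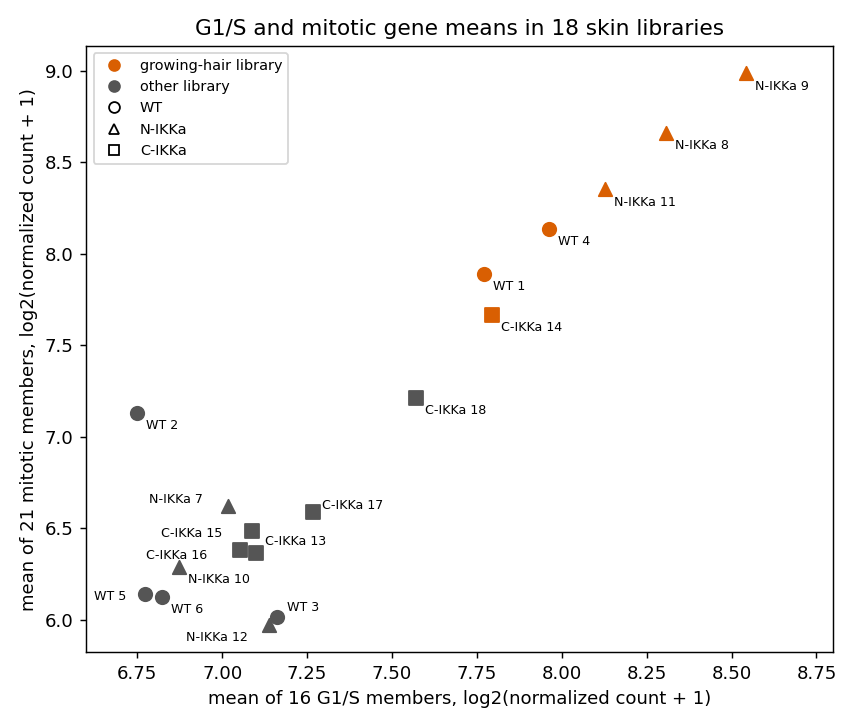
Mean of the 16 G1/S genes (horizontal axis) against the mean of the 21 mitotic genes (vertical axis), both as log2(normalized count + 1), 1 point per library. Orange points are the 6 growing-hair libraries, whose mitotic means run from 7.66 to 8.99, and grey points the 12 others, from 5.97 to 7.21, with WT 2 to the left and C-IKKa 18 nearest to the growing-hair set.

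Among the G1 regulators, Ccnd1 (ENSMUSG00000070348.6) encodes cyclin D1, which couples growth signals to the cell cycle. It ranged from 1231 to 2608 normalized counts in the growing-hair libraries (median 1664) and from 687 to 1053 in the others (median 841), without overlap. Ccne1, which encodes the cyclin E1 that drives S phase entry, was the G1/S gene with the highest ratio of medians, 3.95, with 49.8 to 85.6 normalized counts (median 59.2) against 6.01 to 36.1 (median 15.0). Its paralogue Ccne2 behaved differently. Ccne2 held 21.2 to 66.2 normalized counts (median 39.3) against 15.2 to 50.4 (median 24.4), and 10 of the 12 other libraries were at or above the lowest growing-hair library. E2f1, a transcription factor of S phase genes, had medians of 247 and 164 and overlapped through N-IKKa 7 and C-IKKa 18.

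The licensing genes build the helicase that opens the DNA at origins. Mcm2 to Mcm7 encode its 6 subunits, Cdc6 loads it, and Cdc45 activates it. The ratio of medians was 2.87 for Mcm5, 2.74 for Cdc6, 2.22 for Mcm2, 2.11 for Mcm3, 1.91 for Cdc45 and 1.79 for Mcm6, all without overlap. Mcm4 and Mcm7 stood lower, at 1.48 and 1.40. Mcm7 ranged from 114 to 200 normalized counts (median 166) in the growing-hair libraries and from 99.5 to 175 (median 119) in the others, so that 7 of these 12 reached the lowest growing-hair value. Subunits of 1 complex thus differed in ratio, from 1.40 to 2.87.

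Of the genes for DNA synthesis, Rrm2, the regulated small subunit of ribonucleotide reductase, ranged from 373 to 763 normalized counts (median 568.4) against 138 to 256 (median 155). Rrm1, the large subunit of the same enzyme, had medians of 802 and 434, a ratio of 1.85 against 3.67 for Rrm2. Thymidylate synthase, encoded by Tyms, had a ratio of 1.67 and overlapped through C-IKKa 18 alone. Pcna, the sliding clamp of DNA polymerases, had one of 1.42 without overlap. Reads of Pcna may be divided with Pcna-ps2, a near copy listed separately, which had medians of 1607 and 1001.

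Among the mitotic kinases and cyclins, Cdk1 (ENSMUSG00000019942.14), the kinase that starts mitosis, ranged from 130 to 405 normalized counts in the growing-hair libraries (median 232) and from 26.9 to 96.9 in the others (median 53.6). Its partners Ccna2, Ccnb1 and Ccnb2 had ratios of medians of 3.75, 3.25 and 4.07. Ccnb2 overlapped through C-IKKa 18, which held 118 normalized counts where C-IKKa 14 held 81.6. Plk1, a kinase of spindle assembly and mitotic exit, reached a ratio of 3.88. Aurkb and Birc5, the kinase of the chromosomal passenger complex and the survivin subunit that anchors it, had ratios of 3.85 and 3.86. Aurka, the centrosome kinase, was lower at 2.35.

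The spindle checkpoint and the anaphase-promoting complex control the separation of chromosomes. Bub1, a checkpoint kinase at the kinetochore, had the highest ratio of all 37 genes, 5.35, with 109 to 272 normalized counts (median 160) against 24.1 to 45.4 (median 29.9). Bub1b, which encodes the checkpoint protein BubR1, had a ratio of 3.74. Cdc20, the activator of the complex, and Ube2c, the enzyme that supplies its ubiquitin, had ratios of 2.61 and 3.27. Ube2c overlapped through WT 2, with 110 normalized counts where C-IKKa 14 held 91.4.

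Spindle and chromatin genes followed the same order of libraries. Kif11, the motor that pushes the spindle poles apart, ranged from 406 to 1201 normalized counts (median 733) against 81.0 to 287 (median 142). Cenpe and Cenpf, proteins of the kinetochore, had ratios of 4.12 and 3.46, and the spindle assembly factor Tpx2 had one of 4.13. Hmmr, a microtubule-binding protein, had a ratio of 3.61. Kif20a, a motor of cytokinesis, and Nusap1, which bundles spindle microtubules, were lower at 2.47 and 2.12 and overlapped with 5 and 2 other libraries. Mki67, the gene of the proliferation antigen Ki-67, ranged from 2866 to 8959 normalized counts (median 5417) against 822 to 2115 (median 1253). Top2a, the topoisomerase that untangles chromosomes, had medians of 1044 and 279.

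**Figure D2:**
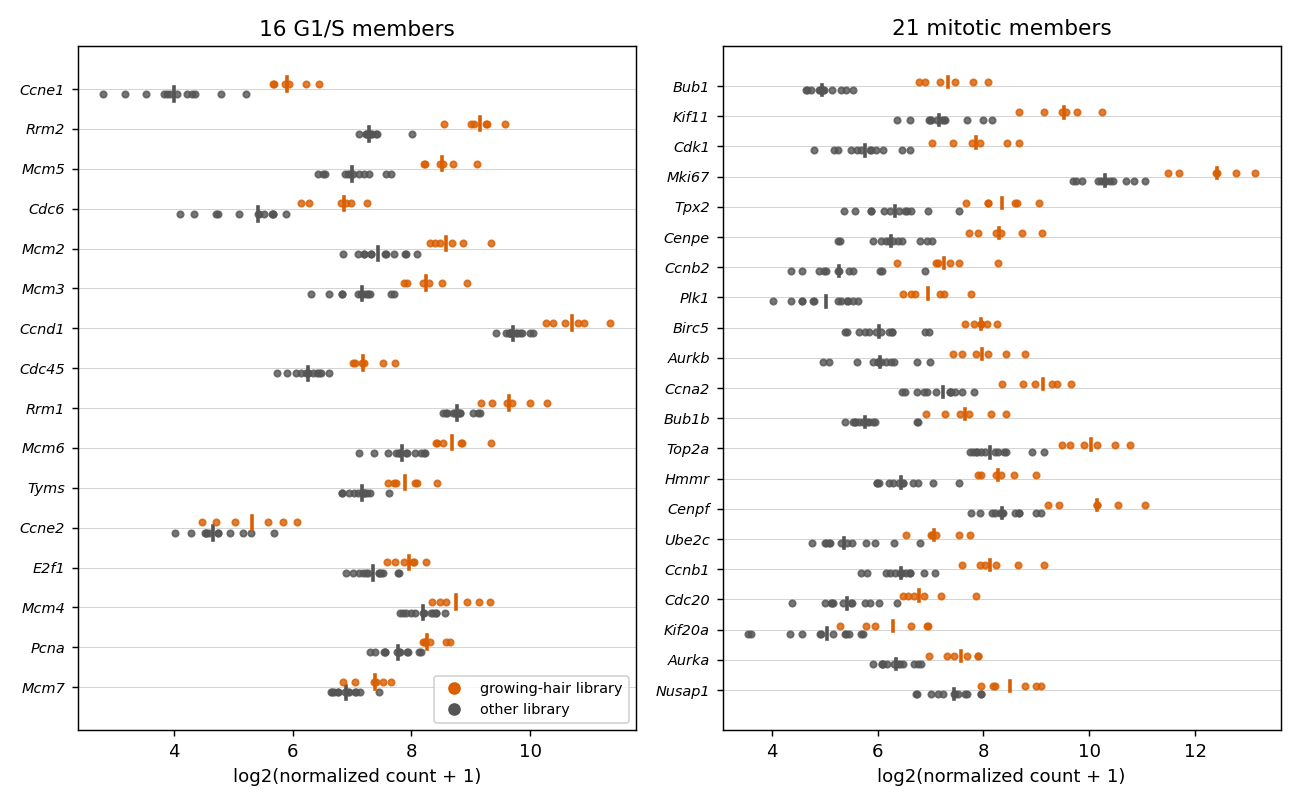
The 37 genes in every library as log2(normalized count + 1), G1/S genes left and mitotic genes right, ordered by ratio of medians, with orange points for the 6 growing-hair libraries, grey points for the 12 others and vertical bars at the medians. The 2 colours separate completely in 28 genes and overlap in 9, among them Ccne2, Mcm7 and Kif20a.

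The same order held within each genotype, with different sizes. The median growing-hair minus other difference of the mitotic genes was 1.73 in WT (2 libraries against 4), 2.37 in N-IKKa (3 against 3) and 1.03 in C-IKKa (1 against 5). Among the G1/S genes the medians were 0.86, 1.17 and 0.52, and those of all genes tested lay between −0.01 and 0.01. C-IKKa 14 is the 1 growing-hair library of its group. Its mitotic mean was 7.66 on the log2 scale, where WT 1 and 4 were at 7.89 and 8.14 and the 3 growing-hair N-IKKa libraries at 8.35 to 8.99. Its G1/S mean of 7.79 lay between those of WT 1 (7.77) and WT 4 (7.96). At the other end, N-IKKa 9 had the highest means of all 18 libraries, 8.54 (G1/S) and 8.99 (mitotic).

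Hair shaft transcripts did not order the growing-hair libraries as the cell cycle genes did. N-IKKa 9, highest in mitotic genes, had a hair shaft mean of 10.23 on the log2 scale, and WT 4 had the highest, 12.21. Hair matrix markers, in contrast, were highest in N-IKKa 9 (11.15). C-IKKa 14 was the lowest growing-hair library in both lists, at 10.10 (hair shaft) and 9.94 (hair matrix). Markers of other cells moved with the division as well. The 6 T cell markers summed to 131 to 267 normalized counts in the growing-hair libraries and to 451 to 652 in the others, and melanocyte markers to 5633 to 15382 against 1977 to 3787. The keratinocyte sums were 50069 to 97830 against 88162 to 140310. Of these 3 lists, no marker was at 0 in every library of either set. B cell markers summed to 6.62 to 26.1 and 12.3 to 35.8, with Ms4a1 at 0 in every library. The 3 fibroblast markers, 0 of 3 higher in the growing-hair libraries (median log2 difference −1.78), summed to 13336 to 37759 against 15328 to 215840. Their means also divided by sex. On the log2 scale they were 11.77 to 13.24 in the growing-hair libraries, all female. Among the others they were 12.14 to 13.06 in the 4 females and 13.88 to 14.71 in the 8 males. Macrophage markers, 0 of 4 higher (median −0.90), summed to 1312 to 5367 against 3302 to 6324. The sums of endothelial, muscle and sebaceous markers overlapped as well, with medians of −0.36, −0.62 and −0.90. The part of these cells in the differences was not tested.

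Within the 12 libraries outside the growing-hair set, the mitotic mean was highest in C-IKKa 18 and WT 2, and the G1/S mean in C-IKKa 18 but not in WT 2. C-IKKa 18 had means of 7.57 (G1/S) and 7.21 (mitotic) on the log2 scale. C-IKKa 13, 15, 16 and 17 lay between 7.05 and 7.27 and between 6.37 and 6.59. The mitotic mean of WT 2 was 7.13, where WT 3, 5 and 6 lay between 6.02 and 6.14. Its G1/S mean of 6.75 was the lowest of all 18 libraries. In Bub1b, for example, WT 2 held 106 normalized counts and WT 3, 5 and 6 held 46.5, 45.6 and 40.9. In Mcm6 it held 137, below WT 3 with 213, WT 5 with 238 and WT 6 with 165.

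The mitotic mean minus the G1/S mean puts this into 1 value per library. It ran from −0.13 in C-IKKa 14 to 0.44 in N-IKKa 9 among the growing-hair libraries. Among the others it ran from −1.16 to −0.36, apart from WT 2 with 0.38. The hair matrix mean was 8.12 in C-IKKa 18, the highest of the 12, and 6.83 in WT 2, the highest of the 4 WT libraries of this set, where the other 3 lay between 6.16 and 6.63. WT 2 lay below C-IKKa 16 (7.05) and N-IKKa 7 (6.88) in this mean. Melanocyte means were highest of the 12 in C-IKKa 18 (8.51) and WT 2 (7.79), with N-IKKa 7 close to WT 2 at 7.77. The hair shaft means were 5.54 in C-IKKa 18 and 1.86 in WT 2. WT 2 was also the highest of the libraries read as female in Ddx3y, with 44.4 normalized counts, where libraries read as male held 1536 or more.

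**Figure D3:**
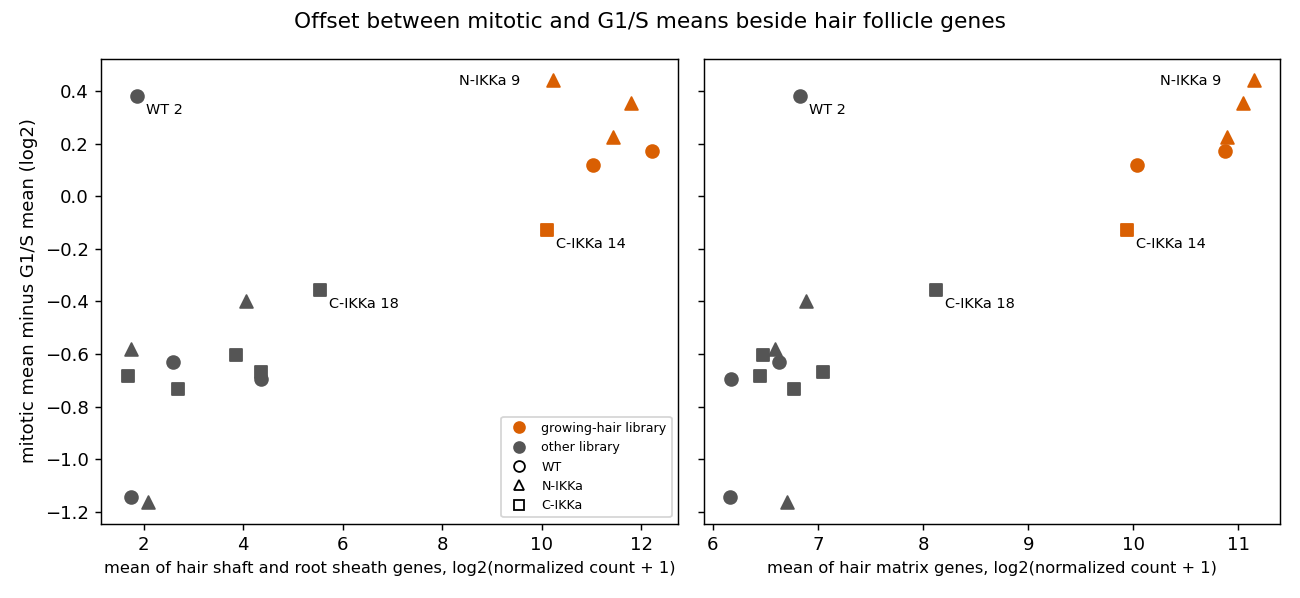
Mitotic mean minus G1/S mean (vertical axis, log2) against the mean of hair shaft and root sheath genes (left) and of hair matrix genes (right), both as log2(normalized count + 1), 1 point per library. WT 2 sits at 0.38 with a hair shaft mean of 1.86 and a hair matrix mean of 6.83, whereas every other grey point lies at or below −0.36.

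Sex was unevenly spread over the libraries. Among the 12 libraries without growing hair, the median of the 4 females was above that of the 8 males in 21 of 21 mitotic genes and in 4 of 16 G1/S genes. WT 2 and C-IKKa 18 are 2 of these 4 females, and the other 2, WT 5 and N-IKKa 10, had mitotic means of 6.14 and 6.29, within the range of the 8 males (5.97 to 6.62). WT 2 and C-IKKa 18 lay above that range, at 7.13 and 7.21. Against the 4 females alone, the counts without overlap were also 11 of 16 and 17 of 21. Leaving out libraries could not lower these counts, and they were made for the members only. They therefore do not separate sex from hair stage. The median mitotic difference in the female libraries was 1.45, against 1.76 with all libraries, and the G1/S median stayed at 0.83.

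Genotypes were compared first over all 18 libraries, to ask what IKKα in the nucleus or cytoplasm of keratinocytes goes with. The comparisons of N-IKKa with WT and of C-IKKa with WT share the WT libraries. In N-IKKa against WT all 37 genes had positive log2 differences, with a median of 0.46 for the G1/S and 0.58 for the mitotic genes, against 0.01 for all genes. Of all genes tested, 51.2% were positive. The 37 genes were measured in the same mice, so their signs, here and below, are not separate observations of genotype. The mitotic median was 0.36 without N-IKKa 8, 0.31 without N-IKKa 9 and 0.92 without N-IKKa 12, and the G1/S median was 0.30 without N-IKKa 9. With a term for growing hair both medians were lower, at 0.28 (mitotic) and 0.27 (G1/S). Hair markers differed in the same direction, with 14 of 14 hair shaft markers (median 1.34) and 6 of 6 hair matrix markers (median 1.12) positive, and their part was not tested. Limma called 0 of 37 at an adjusted p below 0.05, where it called 0.00566% of all genes tested. At an unadjusted p below 0.05 limma had 2, Ccnd1 and E2f1, where 731 of all 17667 genes tested were at that level. EdgeR and DESeq2 had 5 members each at that level and called 0, where they called 1 and 2 of all genes. Ccnd1 ranged from 687 to 1541 normalized counts in WT (median 859), from 878 to 2608 in N-IKKa (median 1420) and from 767 to 1335 in C-IKKa (median 838). The groups overlapped, and the log2 difference of N-IKKa from WT was 0.58 (SE 0.25, limma adjusted p = 0.88).

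C-IKKa against WT gave 0 of 37 called, where limma called 0.345% of all genes. At an unadjusted p below 0.05 there were 0 by limma, edgeR or DESeq2, where limma had 1012 of all 17667 genes tested. EdgeR and DESeq2 called 55 and 151 of all genes. The G1/S median was 0.14 and the mitotic median −0.15, with 12 of 16 and 5 of 21 genes positive, where 50% of all genes tested were. For Mki67, the C-IKKa libraries ranged from 1138 to 2866 normalized counts (median 1369) and the WT libraries from 822 to 5461 (median 1546). The log2 difference was −0.17 (SE 0.57, limma adjusted p = 0.99). The mitotic median turned to 0.15 without WT 4 and was −0.34 without C-IKKa 14, both growing-hair libraries. With a term for male libraries it was 0.33, and with one for growing hair 0.22. The G1/S median ran from 0.02 without WT 5 or C-IKKa 14 to 0.25 without WT 1.

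In N-IKKa against C-IKKa, 36 of 37 genes were positive, where 50.9% of all genes tested were. The medians were 0.35 (G1/S) and 0.69 (mitotic), and limma called 0 of 37, against 0.43% of all genes. At an unadjusted p below 0.05 there was 1 by limma, Ccnd1 (log2 difference 0.66, SE 0.25, limma adjusted p = 0.38), where 2059 of all 17667 genes tested were at that level. EdgeR had 8 members and DESeq2 14 at that level and called 0, where they called 60 and 188 of all genes. Growing-hair libraries made up 3 of 6 in N-IKKa, 2 of 6 in WT and 1 of 6 in C-IKKa. With a term for growing hair the medians of N-IKKa against C-IKKa were 0.02 and 0.10, and with a term for male libraries the mitotic median was 0.21. In no comparison of 6 with 6 libraries were the genotypes without overlap in any of the 37 genes, where 0.0849% to 0.838% of all genes lay completely above and 0.0396% to 0.736% below.

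**Figure D4:**
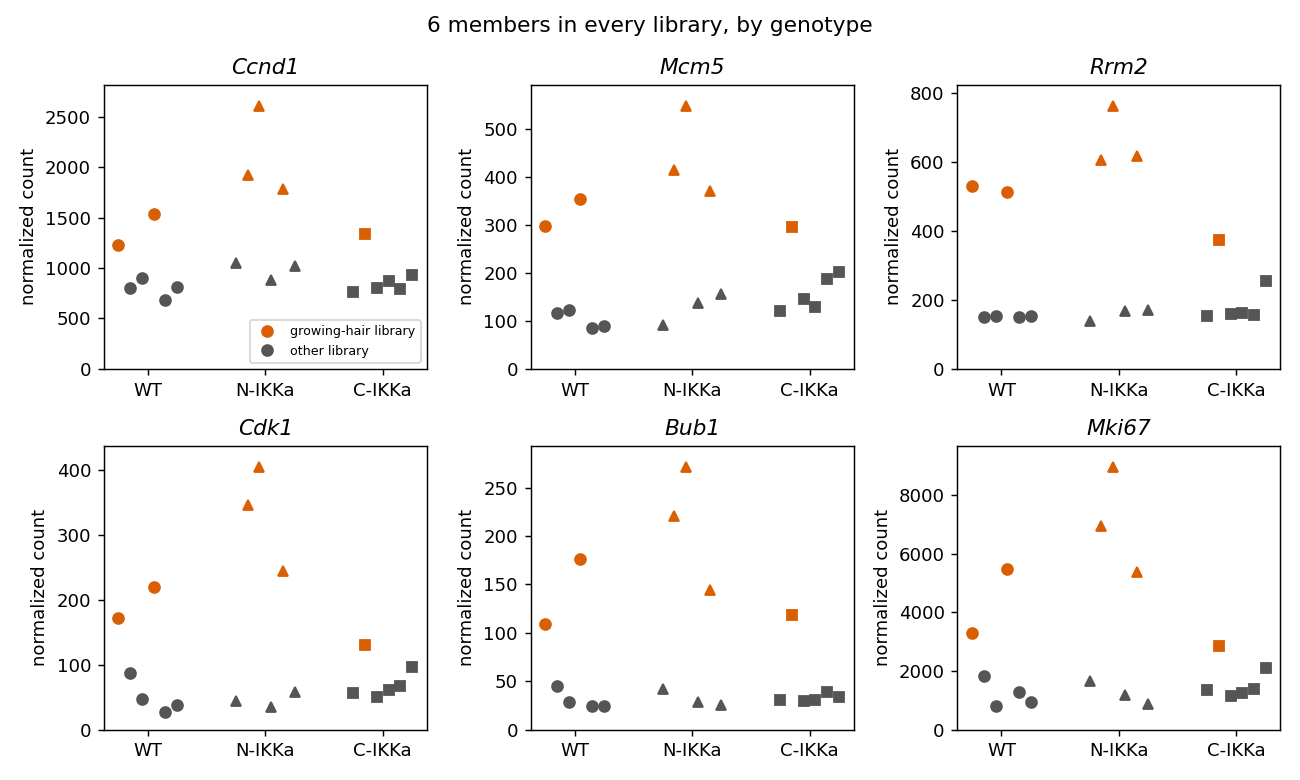
Normalized counts of Ccnd1, Mcm5, Rrm2, Cdk1, Bub1 and Mki67 in each of the 18 libraries by genotype, each vertical axis starting at 0, with orange for growing-hair and grey for other libraries. The orange points lie above the grey ones in all 3 genotypes, and the 3 N-IKKa orange points include the highest value in each panel.

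Among the growing-hair libraries, the 3 N-IKKa mice tended to hold more of the 37 transcripts than the 2 WT mice. Mki67 was at 6942, 8959 and 5372 normalized counts in N-IKKa 8, 9 and 11, at 3301 and 5461 in WT 1 and 4, and at 2866 in C-IKKa 14, so N-IKKa 11 lay below WT 4. Cdk1 was at 347, 405 and 244 in N-IKKa, at 171 and 220 in WT, and at 130 in C-IKKa 14. Mcm4, a helicase subunit, was at 565, 638 and 487 in N-IKKa, at 381 and 325 in WT, and at 357 in C-IKKa 14. In the latter 2 genes each N-IKKa library lay above both WT libraries, as in 27 of 37 genes (10 G1/S and 17 mitotic), where 11.6% of all genes tested did so and 9.73% lay below both.

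All 37 log2 differences of growing-hair N-IKKa from growing-hair WT were positive, with medians of 0.50 (G1/S) and 0.68 (mitotic) against 0.01 for all genes. Of all genes tested, 51.5% were positive. The 37 signs come from the same 3 N-IKKa and 2 WT mice and are not separate observations of genotype. Limma called 0 of 37, against 0.0113% of all genes. At an unadjusted p below 0.05 it had 10, 7 of them G1/S genes, where 1797 of all 17667 genes tested were at that level. EdgeR had 12 and DESeq2 15 at that level and called 0, where they called 1 and 120 of all genes. The lowest p belonged to Ccnd1, at 1920, 2608 and 1787 normalized counts in N-IKKa against 1231 and 1541 in WT (log2 difference 0.59, SE 0.16, limma adjusted p = 0.27). Without WT 4 it was called (0.75, limma adjusted p = 0.0295), which left 1 growing-hair WT library, assumed to vary like the other groups. Next came Mcm4 (0.67, SE 0.21, limma adjusted p = 0.31) and Mcm7 (0.58, SE 0.20, limma adjusted p = 0.35). Kif20a had the highest difference, 1.22. Hair matrix markers also differed in this direction, with 6 of 6 positive and a median of 0.60, whereas the hair shaft median was −0.59. Macrophage markers were lower in N-IKKa in 4 of 4 (median −0.69) and keratinocyte markers in 5 of 5 (median −0.38), each list with 2 at an unadjusted p below 0.05. Of the WT libraries, only WT 1 lay above N-IKKa in these list means. The macrophage mean was 9.93 in WT 1 and 8.18 in WT 4, against 8.05 to 8.62 in N-IKKa. The keratinocyte mean was 13.92 in WT 1 and 12.64 in WT 4, against 12.71 to 13.03. The part of these cells was not tested. Without WT 1 the G1/S median was 0.33.

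Outside the growing-hair set, N-IKKa and WT lay closer together. The medians were 0.17 for the G1/S and −0.01 for the mitotic genes, with 20 of 37 positive, where 53.3% of all genes tested were. Limma called 0 of 37, against 0.0113% of all genes. Ccnd1 was at 1053, 878 and 1023 normalized counts in N-IKKa 7, 10 and 12 and at 803, 905, 687 and 812 in WT 2, 3, 5 and 6, which overlap. It was the 1 member at an unadjusted p below 0.05 by limma (0.30, SE 0.13, limma adjusted p = 0.90), where 962 of all 17667 genes tested were at that level. EdgeR and DESeq2 had 2 members each and called 0, where they called 2 and 4 of all genes. Of 37 genes, E2f1 lay completely above in N-IKKa and Mcm7 and Aurka completely below, where 2.93% and 4.14% of all genes did so. Without WT 2 the mitotic median was 0.25. The G1/S median was 0.07 without WT 5 and 0.30 without WT 3.

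Whether the N-IKKa difference itself depended on growing hair was tested as an interaction. The difference was higher in the growing-hair libraries in 36 of 37 genes, where it was in 49.8% of all genes tested. The median was 0.23 for the G1/S and 0.75 for the mitotic genes. Limma called 0 of 37 and 0% of all genes. It had 4 members at an unadjusted p below 0.05 (Mcm2, Mcm4, Mcm7 and Cenpf), where 1510 of all 17667 genes tested were at that level. EdgeR had 4 and DESeq2 9 at that level and called 0, where they called 0 and 14 of all genes. For Mki67 the interaction was 0.66 (SE 0.45, limma adjusted p = 0.69). Without WT 2 the mitotic median was 0.47, and the G1/S median was 0.14 without N-IKKa 9 and 0.15 without WT 1.

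None of the 37 genes passed the test in C-IKKa against WT without growing hair. All 16 G1/S genes and 18 of 21 mitotic genes were positive, with medians of 0.26 and 0.29, where 51.2% of all genes tested were positive. Limma called 0.781% of all genes, 0.77% higher in C-IKKa. At an unadjusted p below 0.05, limma, edgeR and DESeq2 had 6 each and called 0, and by limma these were Mcm3, Mcm5, Mcm6, Ccne1, Cdc6 and Pcna. Limma had 1762 of all 17667 genes tested at that level, and edgeR and DESeq2 called 131 and 288 of all genes. Mcm3 was at 146, 152, 141, 201 and 208 normalized counts in C-IKKa 13, 15, 16, 17 and 18 and at 96.8, 156, 78.3 and 113 in WT 2, 3, 5 and 6 (log2 difference 0.63, SE 0.20, limma adjusted p = 0.25). WT 3 lay within the C-IKKa range. Mcm5 was at 120, 147, 129, 189 and 201 in C-IKKa and at 117, 124, 85.3 and 90.2 in WT (0.58, SE 0.20, limma adjusted p = 0.29), with WT 3 again above the lowest C-IKKa library.

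Rrm2 was the 1 gene in which all 5 C-IKKa libraries lay above all 4 WT libraries, by little in 4 of them (154 to 161 normalized counts against 150 to 154), where 2.54% of all genes did so. The mitotic median was 0.12 without C-IKKa 18, 0.17 without WT 3 and 0.53 without WT 2. Hair shaft markers differed in the same comparison (13 of 14 positive, median 1.18, 0 called). Of 6 hair matrix markers 5 were positive (median 0.15), and limma called 1 as higher in C-IKKa, against 0.77% of all genes. C-IKKa 18, 1 of the 5 C-IKKa libraries, had the highest hair shaft and hair matrix means of the 12. Sex differed as well, with 4 of 5 male libraries in C-IKKa and 2 of 4 in WT. The part of hair markers and sex in these differences was not tested.

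N-IKKa was also compared with the same C-IKKa libraries without growing hair. Of 37 genes 4 were positive, with medians of −0.18 and −0.26, where 51.3% of all genes tested were positive. Limma called 0 of 37, against 0.317% of all genes, 0.017% higher in N-IKKa. Unadjusted p-values below 0.05 were found by limma in Mcm2, Mcm7 and Kif11, where 972 of all 17667 genes tested were at that level. EdgeR and DESeq2 had 4 members each and called 0, where they called 57 and 142 of all genes. Mcm2 was at 159, 146 and 136 normalized counts in N-IKKa and at 207, 190, 159.3, 237 and 273 in C-IKKa (log2 difference −0.51, SE 0.21, limma adjusted p = 0.80). In Mcm2 and Kif11 the 3 N-IKKa libraries lay below all 5 C-IKKa libraries, where 2.81% of all genes did so and 2.39% lay completely above. The mitotic median was −0.12 without C-IKKa 18 and −0.43 without N-IKKa 7, and the G1/S median ran from −0.11 without N-IKKa 7 to −0.29 without N-IKKa 12. Of 14 hair shaft markers 13 were negative (median −0.89), and of 6 hair matrix markers 4 were positive (median 0.08), with 0 called in either list. N-IKKa 10 and C-IKKa 18 were read as female and the other libraries compared as male. The part of hair markers and sex was not tested.

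**Figure D5:**
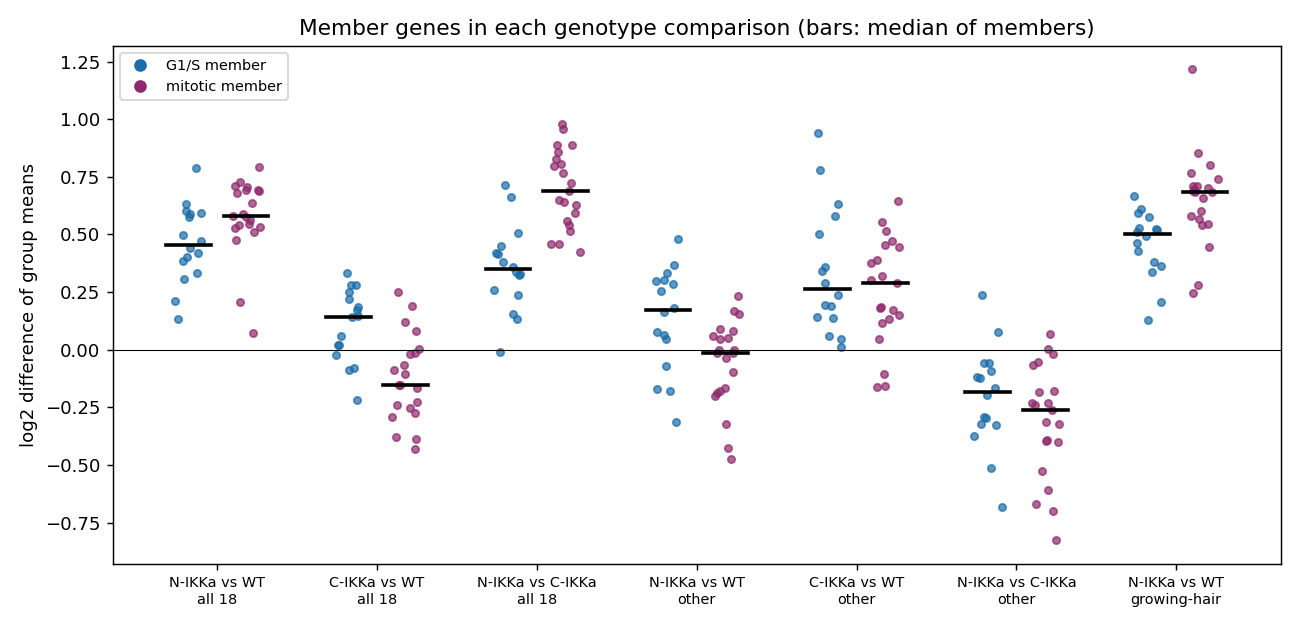
Log2 difference of group means (vertical axis) for each of the 37 genes in 7 comparisons, G1/S genes in blue and mitotic genes in purple, with black bars at the medians. All points lie above 0 in N-IKKa against WT over all libraries and over growing-hair libraries, and the bars of the 3 comparisons without growing hair lie between −0.26 and 0.29.

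Further genes of the same pathways were counted from a list of 48 G1/S and 46 mitotic genes, of which 47 and 45 were tested. Tk1 and Prc1, 1 of each, were listed at 0 in every library. All 6 growing-hair libraries lay above all others in 16 of 47 and 30 of 45, where 8.45% of all genes did so and 5.25% lay completely below, and the median differences were 0.63 and 1.42. The mitotic transcription factor Foxm1 was among them, with 384 to 768 normalized counts against 76.0 to 266, as was Mcm10, an initiation factor, with 93.7 to 204 against 10.5 to 67.5. Ccnd3, the third D-type cyclin gene, and Cdc25b, a phosphatase that activates Cdk1, went the other way, at medians of 727 against 1024 and 497 against 654.

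Of these further genes, 2 of 47 G1/S genes rose in C-IKKa against WT without growing hair, where limma called 0.77% of all genes as higher. It called 0 in the other comparisons, with 0 to 13 per list at an unadjusted p below 0.05, where 731 to 2059 of all 17667 genes tested were at that level. Chaf1b, a subunit of the chromatin assembly factor at replication forks, was at 101, 103, 86.8, 103 and 122 normalized counts in C-IKKa 13, 15, 16, 17 and 18 and at 41.3, 71.5, 51.4 and 61.4 in WT 2, 3, 5 and 6. Its log2 difference was 0.88 (SE 0.19, limma adjusted p = 0.0392). Mcm10 was at 23.7, 23.9, 41.2, 55.5 and 67.5 against 20.2, 13.1, 10.5 and 10.8, a log2 difference of 1.49 (SE 0.33, limma adjusted p = 0.0403). Neither gene overlapped between the genotypes, where 2.54% of all genes lay completely above. Each call was lost in 15 of 32 alternatives, with adjusted p of up to 0.784 for Chaf1b and 0.546 for Mcm10 in the female libraries alone. Chaf1b was lost with edgeR (adjusted p = 0.0523), and both without C-IKKa 18 (adjusted p = 0.109). In growing-hair N-IKKa against WT, DESeq2 called Chaf1b (log2 difference 1.02, adjusted p = 0.034) and limma did not.

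The further genes with the smallest p in each comparison without a call were these, with log2 differences and limma adjusted p of 0.13 to 0.98. Over all libraries, N-IKKa against WT had Chaf1b (1.0) and the primase gene Prim1 (0.29) in G1/S, and the condensin gene Smc4 (0.37) and Cks1b (0.80), a Cdk1-binding protein, in mitosis. C-IKKa against WT had Ccnd3 (0.49), Cdk6 (0.27), Cdc25b (0.29) and the checkpoint kinase gene Ttk (−0.20). N-IKKa against C-IKKa had Ccnd3 (−0.64), the origin recognition gene Orc6 (0.34), Cks1b (1.03) and the cytokinesis motor gene Kif23 (0.65). Ccnd3, lower in the growing-hair libraries, thus differed opposite in sign to the 36 members that were positive in N-IKKa against C-IKKa. Without growing hair, N-IKKa against WT had Chaf1b (0.77), Mcm10 (0.86), Cdc25b (0.38) and the kinetochore gene Spc24 (−0.61), C-IKKa against WT had the cohesion factor gene Cdca5 (1.07) and the spindle gene Tacc3 (0.51), and N-IKKa against C-IKKa had E2f2 (−0.47), the clamp loader gene Rfc5 (−0.63), Spc24 (−1.0) and Cdca5 (−0.68). With growing hair, N-IKKa against WT had the maintenance methyltransferase gene Dnmt1 (0.56), the pocket protein gene Rbl1 (0.68), the condensin gene Smc2 (0.57) and Ckap2l (0.59). The interaction had Rpa1 (0.61), Dnmt1 (0.54), Smc2 (0.76) and the centrosome kinase gene Nek2 (1.11).

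Of the 37 genes, 10 share exon length with genes on the opposite strand in an annotation of the earlier build, 5 of them over more than 10% of it: Kif20a over 29.3% (Cdc23), Ccnd1 over 23.4% (LTO1), Ube2c over 22.8% (Tnnc2), Ccne2 over 17.4% (Ints8) and Ccna2 over 12.5% (Exosc9). In Mcm7, Plk1, Cdc45, Nusap1 and Cdc20 the share was 2.84% to 8.7%, and Mcm7 and Top2a also overlap genes on their own strand over 3.89% and 1.35%. The strand setting of the counting was not given, so reads of these pairs may not be told apart. Of near copies, Tyms-ps had medians of 186 and 78.1 normalized counts in the growing-hair and other libraries and Ccnb1-ps of 65.8 and 13.0, and how reads were divided with Tyms and Ccnb1 is uncertain.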

How the data were processed

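Back skin of 18 mice, 1 library each, was analysed from the table the authors deposited. The signal values deposited by the authors are counts per gene made with featureCounts on GRCm39, per the submitters' processing notes, and, by the steps in the values, divided by 1 factor per library. Not given in the sources used here were the aligner, annotation release, strand setting and scaling tool. In each library a single step divided 100% of the values above 0 into whole reads (tolerance 0.001), so the deposited values were turned back into reads.

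The scale was log2(normalized count + 1). Genes at 10 or more in at least 6 libraries were tested (17667 of 55357). Limma 3.58.1 in R 4.3.3 (empirical Bayes with a trend) was fitted with 3 genotype means (15 residual degrees of freedom) and with 6 means of genotype by hair set (12), with two-sided p adjusted by Benjamini-Hochberg over all tested genes. The threshold for a call was an adjusted p of 0.05. Fits were tested on simulated data. A value of 0 allows up to 3 counts, or 2.45 to 3.61 normalized counts, for counting error only. Libraries were read as male where Ddx3y exceeded 500.

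The members, gene lists and hair sets were chosen with earlier results of these data known. All 37 members are named. Of the further cell cycle genes, those called were named, and otherwise those with the smallest p. Foxm1, Ccnd3, Cdc25b, Tk1, Prc1 and the near copies were chosen after their values were seen. Krt85 is not listed under that symbol. The alternatives tried were edgeR 4.0.16 and DESeq2 1.42.0 (both on recovered reads), scaling by quantiles, TMM or median of ratios, a pseudocount of 0.5 or 5, a filter of 50 or none, robust moderation, covariates for male and growing-hair libraries, subsets of groups, and each library left out. Chosen after seeing the data were a male covariate in the 6-mean fit, the 10 female libraries alone, and leaving out both WT 2 and C-IKKa 18.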

Additional observations from a re-analysis of the deposited data

Results flagged for a closer look

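Each gene and both list means were examined on the log2 scale for a library far from the rest of its group, in 234 groups, where chance gives about 1 in 20, and 8 stood out. Of these, 7 concern WT 2, C-IKKa 18 or C-IKKa 14. Bub1b in WT 2 was at 105.8 normalized counts, with the WT libraries without growing hair otherwise at 40.9 to 46.5, and the mean of the mitotic genes in WT 2 was 7.13 against 6.02 to 6.14. In C-IKKa 18, Rrm2 was at 255.7 against 154.5 to 161.1 in the C-IKKa libraries without growing hair, Ccnb1 at 134.0 against 79.3 to 91.8, and the mitotic mean at 7.21 against 6.37 to 6.59. Within all 6 C-IKKa libraries, the growing-hair library C-IKKa 14 stood out in Ccnd1, at 1335 normalized counts against 767 to 933, and in Bub1, at 118.3 against 29.4 to 38.8. E2f1 was lowest in C-IKKa 13, at 118.4 against 174.6 to 217.6.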

How the results depend on the processing

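No paired analysis was possible because no mouse number occurs in more than 1 group. Over 10527 values of single members under alternatives, 0 reversed a call, 1 gained one (Ccnd1 in growing-hair N-IKKa against WT, without WT 4), 13 moved by more than the spread between libraries, and 343 uncalled values changed sign. The 13 were all growing-hair minus other differences. Without C-IKKa 14, Rrm2, Cdk1, Ccnb2, Kif11, Nusap1 and Mki67 rose. With the male covariate, Ccnb1 (1.33), Ccnb2 (1.18), Ube2c (0.92), Kif11 (1.72) and Cenpf (1.07) fell. In the female libraries alone, Ccnb2 (1.16) and Ube2c (0.96) fell. The median mitotic difference of N-IKKa from C-IKKa over all libraries was 1.13 with edgeR and 1.13 with DESeq2, 0.21 with the male covariate and 0.10 with the growing-hair covariate, against 0.69, and the G1/S median was 0.017 with the latter, against 0.35. The cause was not tested. The mitotic median of C-IKKa against WT over all libraries was 0.33 with the male covariate, against −0.15, and −0.34 to 0.15 leaving out 1 library. In the female libraries alone, which hold 2 WT, 1 N-IKKa and 1 C-IKKa without growing hair, the G1/S median was 0.73 in C-IKKa against WT without growing hair and −0.56 in N-IKKa against C-IKKa, where the mitotic median was −0.85. Leaving out 1 library, 0 to 1 members were called in growing-hair N-IKKa against WT, and 0 in the other comparisons. The growing-hair minus other medians ran from 0.78 to 0.99 (G1/S) and from 1.68 to 2.05 (mitotic), highest without C-IKKa 14. The all-library median of N-IKKa against WT ran from 0.30 to 0.58 (G1/S) and from 0.31 to 0.92 (mitotic), and that of N-IKKa against C-IKKa from 0.21 to 0.51 and from 0.40 to 1.007, each lowest without N-IKKa 9. With 1 growing-hair C-IKKa library, C-IKKa was not compared within that set.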
